A study of Mus musculus with 12 samples.

Results

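The genes described are the members of the 4 mouse Hox clusters, taken as every gene whose symbol is Hoxa, Hoxb, Hoxc or Hoxd followed by a number in both expression tables. They are 38 of the 38720 genes listed, with 11 members in the Hoxa cluster, 10 in Hoxb, 9 in Hoxc and 8 in Hoxd. RNA was sequenced from the retinas of newborn (P0) mice of the C57/BL6 strain, after dissociated cells had been split with magnetic beads against CD90 (Thy-1) into a retinal ganglion cell (RGC) fraction and the remaining, non-RGC cells. In each fraction, 3 libraries from mKO mice were compared with 3 libraries from wild-type (WT) mice, 12 libraries in all. The mKO mice carried Cre driven by Math5 and both Ezh2 alleles floxed (Math5-Cre;Ezh2 flox/flox), so that the exons encoding the catalytic SET domain are removed in cells of the Math5 lineage. Ezh2 flox/flox littermates without Cre are named as the study's usual controls, and the labels say only wild type, so whether the WT mice sequenced here carried floxed alleles is not given in the sources used here. Math5-Cre acts in part of the RGCs and in few other retinal cells, per the study, so both mKO fractions also held cells that keep Ezh2. The libraries came from separate RNA extractions, and how many pups went into each is not given in the sources used here, so the tests measure the spread between extractions.

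Hox genes encode homeodomain transcription factors that set the identity of body segments along the head-to-tail axis. Genes at the 3′ end of a cluster (low paralogue numbers) act toward the head, and those at the 5′ end (high numbers) toward the tail and the limb tips. The eye and the rest of the forebrain develop in front of the Hox domain, and in cells that do not use them the clusters are held silent by Polycomb repressive complex 2 (PRC2), whose catalytic subunit Ezh2 methylates histone H3 at lysine 27. The comparison asks whether any Hox gene was higher in mKO retina than in WT.

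Silent Hox promoters are known for clustered CG dinucleotides, to which Polycomb complexes are recruited. The RefSeq promoter table (GRCm38.p6) holds windows from 250 bases before to 50 bases after a start site for 21 of the 38 members, 23 windows in all. A window held a median of 15 CG dinucleotides, against 7 over the windows of all genes. Of these Hox windows, 47.8% had a GC content over 50% and a ratio of observed to expected CG over 0.6, against 33.3% of all windows. The windows of Hoxd8, the member with the most reads, and of Hoxd13 and Hoxd1, the members read in every mKO non-RGC library and in no WT library, are printed to show how far they differ in CG content (CG in capitals, plus strand, 5′ to 3′).
Hoxd8 (chr2:74704365-74704664, 6 CG): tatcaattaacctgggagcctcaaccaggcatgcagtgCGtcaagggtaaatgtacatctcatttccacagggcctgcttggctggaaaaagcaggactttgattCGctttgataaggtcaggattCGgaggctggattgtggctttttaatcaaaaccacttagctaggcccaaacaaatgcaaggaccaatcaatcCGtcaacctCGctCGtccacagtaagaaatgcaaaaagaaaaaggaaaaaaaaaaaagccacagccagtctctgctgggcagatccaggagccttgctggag
Hoxd13 (chr2:74667975-74668274, 37 CG): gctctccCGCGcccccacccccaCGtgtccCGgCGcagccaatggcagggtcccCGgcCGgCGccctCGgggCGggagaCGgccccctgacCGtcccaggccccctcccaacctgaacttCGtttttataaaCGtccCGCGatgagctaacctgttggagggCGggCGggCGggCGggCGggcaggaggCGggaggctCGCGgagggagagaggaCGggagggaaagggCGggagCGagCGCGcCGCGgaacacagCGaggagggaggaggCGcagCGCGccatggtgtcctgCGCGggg
Hoxd1 (chr2:74762730-74763029, 29 CG): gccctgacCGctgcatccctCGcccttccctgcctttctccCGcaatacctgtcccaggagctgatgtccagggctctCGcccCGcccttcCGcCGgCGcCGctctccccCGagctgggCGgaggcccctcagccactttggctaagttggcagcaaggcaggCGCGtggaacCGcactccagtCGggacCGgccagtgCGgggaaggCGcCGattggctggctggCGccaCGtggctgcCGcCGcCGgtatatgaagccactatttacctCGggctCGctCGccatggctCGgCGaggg
Hoxd8 had 6 CG dinucleotides and a GC content of 46.7%, below the cutoffs above, while Hoxd13 and Hoxd1 had a GC content of 74.3% and 69.7% and passed both. No binding or histone mark was measured in these samples, so the windows describe the genes and not their state in these cells.

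The deposited values are group means of reads divided by a library size factor, and the whole reads of the 3 libraries behind every mean could be solved from them. Within each group the letters A to C order the libraries by falling depth and are not the labels' replicate numbers. They held 7139633 to 13014004 reads on genes, the fewest in mKO non-RGC library C. A normalized read is a read divided by the library's size factor, and 1 read was worth 0.771 to 1.41 normalized reads. mKO libraries had reads on more genes than WT libraries in RGCs, 22732 to 23492 against 20695 to 21211. Ezh2 itself, the targeted gene, stood at 1354, 1476 and 1443 normalized reads in mKO RGCs and at 1190, 1206 and 1678 in WT RGCs. Its log2 fold change was 0.087 ± 0.13 (SE) in RGCs (limma, adjusted p = 0.657) and 0.13 ± 0.15 in non-RGCs (limma, adjusted p = 0.609). The study reported lower Ezh2 in newborn mKO RGCs by qPCR and Western blot. It also reported a change of Ezh2 in its RNA-seq, which these values do not show. Whole-gene reads also cover the exons that stay in the floxed allele, so this level does not test the deletion, and mKO and WT stand for what the labels say.

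No Hox gene was read above a handful of reads in any library. All 38 members together collected 98 reads in the 12 libraries. Of the 456 values (38 members in 12 libraries), 388 were 0, 51 were 1 read, 12 were 2 or 3 reads and 5 were above 3 reads, with a highest value of 6 reads. No member exceeded 6 reads in a library, whereas 72.8% of the 21370 protein-coding genes did. No member reached a mean of 10 normalized reads in any of the 4 groups, and the highest group mean was 3.52 normalized reads (Hoxd8 in WT RGCs).

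**Figure D1:**
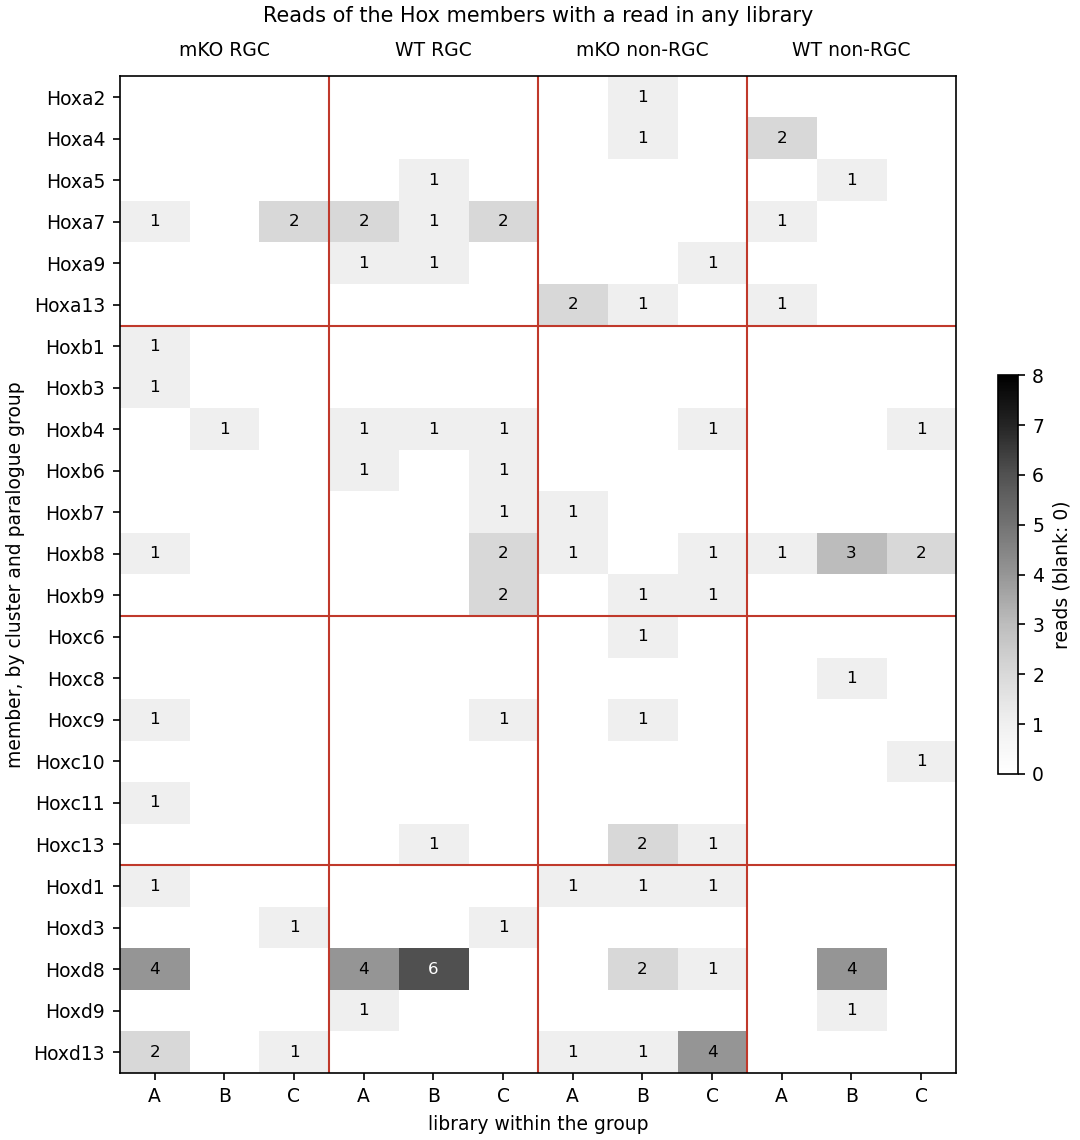
Reads of the 24 Hox members with a read in any library (rows, by cluster and paralogue group) in each of the 12 libraries (columns, A to C within each group). Numbers and shading give the reads, and a blank cell is 0. Most cells are blank or 1, the darkest is Hoxd8 with 6 reads in WT RGC library B, and Hoxd13 is blank in all 6 WT libraries.

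Of the 38 members, 14 had 0 reads in all 12 libraries: 5 of the Hoxa cluster, 3 of Hoxb, 3 of Hoxc and 3 of Hoxd. A further 7 members had reads in only 1 of the 12 libraries, and 36 members had at most 3 reads in every library. In mKO RGCs 11 members had a read in any of the 3 libraries and 27 were at 0, against 13 and 25 in WT RGCs. In mKO non-RGCs 14 members had a read and 24 were at 0, against 10 and 28 in WT non-RGCs. By comparison, 66.3% of all listed genes had a read in mKO RGCs and 60.8% in WT RGCs, while the Hox members stood at 28.9% and 34.2%. In non-RGCs 63.0% of all listed genes had a read in mKO and 59.2% in WT, and 36.8% and 26.3% of the members. Over all 12 libraries 63.2% of the members had a read, against 71.2% of all listed genes and 84.8% of the 21370 protein-coding genes. A count of 0 over 3 libraries allows up to 3 reads, which is 0.0793 CPM (reads scaled to the group's total reads on genes) in mKO RGCs and 0.0992 CPM in mKO non-RGCs, for counting error only.

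Exon lengths of the members run from 874 bases (Hoxa6) to 6014 bases (Hoxa3) and a median of 2466 bases in GENCODE M21. Reads that fall on 2 genes at once may be dropped by the counting program, and its setting is not given in the sources used here. The exons of 15 members overlap those of another annotated gene, and 8 of these were among the 14 members at 0. The other 6 members at 0 are among the 23 with no such overlap, and the part of overlap in the zeros was not tested. Overlap is widest in Hoxd3 (62.9% of exon bases) and Hoxb3 (52.9%), which had 2 reads and 1 read in all, and Hoxd8, Hoxd13, Hoxd1 and Hoxb8 have none.

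Levels were compared between genes as RPKM, which divides the reads by the exon length in kilobases and scales them to the library's reads on genes, averaged over libraries. On this scale the Hox members ran from 0 to 0.0556, with a median of 0.00342. Their neighbours on the chromosome and their partner proteins were read at quite another level. The TALE homeodomain cofactors, which bind DNA together with Hox proteins, ran from 3.59 (Pknox2) to 30.1 (Pbx2). Of 18 genes that lie outside the cluster ends, 13 were above 1, up to 42.7 for Cbx5, a heterochromatin protein gene next to the Hoxc cluster. No Hox member was above 1. The neighbours below 1 included Skap1, Ttll6 and Calcoco2 beside the Hoxb cluster.

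**Figure D2:**
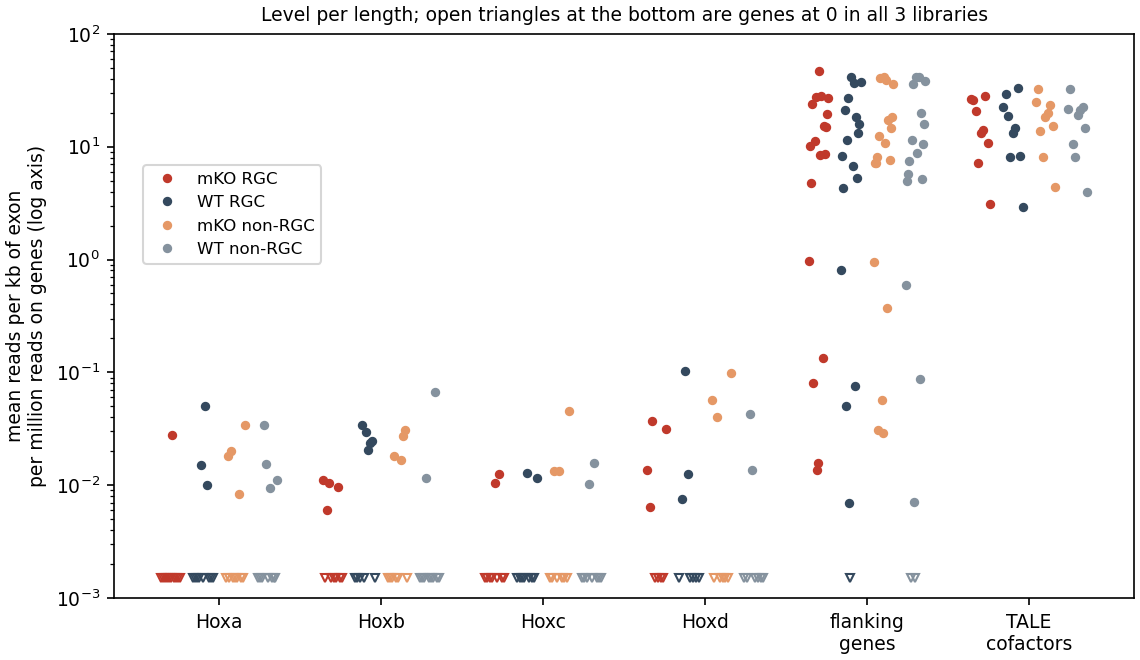
Mean level of each gene in each group (RPKM, log axis) for the members of the 4 Hox clusters, 18 flanking genes and 9 TALE cofactors. Each point is 1 gene in 1 group of 3 libraries, and open triangles at the bottom are genes at 0 in all 3. Hox points sit near or below 0.1, while all TALE cofactors and most flanking genes sit above 1.

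The 8 members of groups 1 to 3 held 9 reads in all, the 14 members of groups 4 to 8 held 58 and the 16 members of groups 9 to 13 held 31. The anterior groups (1 to 3) had 4 reads in mKO RGCs against 1 in WT RGCs, and 4 in mKO non-RGCs against 0 in WT non-RGCs. The central groups had 9 reads in mKO RGCs against 24 in WT RGCs, and 9 in mKO non-RGCs against 16 in WT non-RGCs. The posterior groups had 5 against 7 reads in RGCs and 16 against 3 in non-RGCs. These sums are small and rest on a handful of genes, which are described next.

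Differences between genotypes were tested with limma on log2(normalized reads + 1), over every gene averaging 1 normalized read or more in the 6 libraries of a fraction, with Benjamini-Hochberg adjustment over them. Fold changes on this scale understate the change of genes with few reads. Only 2 of the 38 members could be tested in RGCs (Hoxd8 and Hoxa7) and 3 in non-RGCs (Hoxd13, Hoxd8 and Hoxb8), since the rest were below that mean. None of them passed an adjusted p of 0.05 in either fraction. In RGCs 13.1% of the genes tested were called higher in mKO and 15.7% lower, and in non-RGCs 3.43% and 4.62%. With reads on genes as the library size the same counts were 3998 and 2152 in place of 2733 and 3274 in RGCs, and 1341 and 419 in place of 688 and 928 in non-RGCs, and no Hox member was called either way. At an unadjusted p under 0.05, 0 of 2 members passed in RGCs, where 40.7% of all genes did, and 1 of 3 in non-RGCs, where 26.8% did. That member, Hoxd13, reached the mean needed for the test through mKO alone. Its direction was thus fixed beforehand, and nothing is read from its passing. limma with voom weights also called 0 members after adjustment, and gave 0 and 1 at an unadjusted p under 0.05. The tested members had a median log2 fold change of -0.84 in RGCs and 0.18 in non-RGCs, against 0.070 and 0.035 over all genes tested. In non-RGCs that median is Hoxd8 itself, and it is the same with Hoxd13 at the lower ratio given below.

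Among anterior members, Hoxd1 is known from pain-sensing neurons, and Hoxb1 from the hindbrain. Hoxd1 (ENSMUSG00000042448, chr2:74762980-74765142) had 1, 1 and 1 reads in the mKO non-RGC libraries and 0, 0 and 0 in WT. In RGCs it had 1, 0 and 0 reads in mKO and 0, 0 and 0 in WT. Hoxd1 was thus read in 4 of 6 mKO libraries and in no WT library, never with more than 1 read. Both fractions may come from the same animals, so these 6 are not counted as separate replicates. With 3 reads against 0 in non-RGCs, both genotypes are within what a count of 0 allows, and no fold change is given. Hoxb1 and Hoxb3 each had a single read, both in mKO RGC library A, and Hoxd3 had 1 read in mKO RGC library C and 1 in WT RGC library C.

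Among central members, Hoxb4, known from blood stem cells and the neck region, had reads in 6 libraries and never more than 1. In RGCs it had 0, 1 and 0 reads in mKO and 1, 1 and 1 in WT, and in non-RGCs 0, 0 and 1 in both genotypes. Hoxa7 (ENSMUSG00000038236, chr6:52214491-52221854), a trunk gene, had 1, 0 and 2 reads in mKO RGCs and 2, 1 and 2 in WT RGCs. The genotypes overlapped, and the log2 fold change was -0.65 ± 0.52 (SE; limma, adjusted p = 0.388). In non-RGCs Hoxa7 had 0 reads in mKO and 1, 0 and 0 in WT.

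Hoxb8 (ENSMUSG00000056648, chr11:96281905-96285315), which acts in spinal cord neurons and in blood cell lineages, had 1, 0 and 1 reads in mKO non-RGCs and 1, 3 and 2 in WT non-RGCs. The genotypes overlapped at 1 read, and the log2 fold change was -0.81 ± 0.58 (SE; limma, adjusted p = 0.398). In RGCs it had 1, 0 and 0 reads in mKO and 0, 0 and 2 in WT. It was the only member with reads in all 3 WT non-RGC libraries.

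Hoxd8 (ENSMUSG00000027102, chr2:74704615-74707933), a trunk gene of the Hoxd cluster, held 21 of the 98 reads, the most of any member. It had 4, 0 and 0 reads in mKO RGCs and 4, 6 and 0 in WT RGCs, or 3.49, 0 and 0 against 4.05, 6.51 and 0 normalized reads. In non-RGCs it had 0, 2 and 1 reads in mKO and 0, 4 and 0 in WT. Reads came in bursts in single libraries of either genotype, and the genotypes overlapped in both fractions. The log2 fold change was -1.03 ± 0.91 (SE; limma, adjusted p = 0.439) in RGCs and 0.18 ± 0.75 in non-RGCs (limma, adjusted p = 0.907). Without WT RGC library C the RGC value was -1.90 with an unadjusted p of 0.0369 (limma, adjusted p = 0.082).

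The libraries rich in Hoxd8 were the libraries rich in mesenchymal transcripts. The 10 mesenchyme markers, collagens of connective tissue among them, were all read, with a summed level of 753 to 7258 normalized reads in mKO RGCs, 412 to 16312 in WT RGCs, 319 to 816 in mKO non-RGCs and 533 to 7092 in WT non-RGCs. The 4 libraries with 4 or more Hoxd8 reads were the 4 with the highest sums, at 5176, 7092, 7258 and 16312. The other 8 libraries, at 319 to 2274, had 0 to 2 Hoxd8 reads each. The sums were graded rather than split, and among these 8 the libraries with 2 and 1 Hoxd8 reads ranked 7 and 12 of the 12 by the sum. Some genes of other lists were also highest in the 4 libraries with the most Hoxd8 reads, so the pattern is not particular to mesenchyme. Examples are the endothelial and pericyte markers Pecam1 and Cspg4 and the retinoic acid gene Aldh1a2. Pecam1 had at least 61.9 normalized reads there and at most 39.7 elsewhere. The summed endothelial and pericyte level did not follow, at 4133 in WT RGC library A and 5541 in WT RGC library C. None of the 10 mesenchyme markers was called between genotypes in either fraction (limma, lowest adjusted p = 0.052), and the part of mesenchymal cells in the Hoxd8 reads was not tested. Fewer cells of a type and less RNA per cell cannot be told apart in such bulk libraries.

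**Figure D3:**
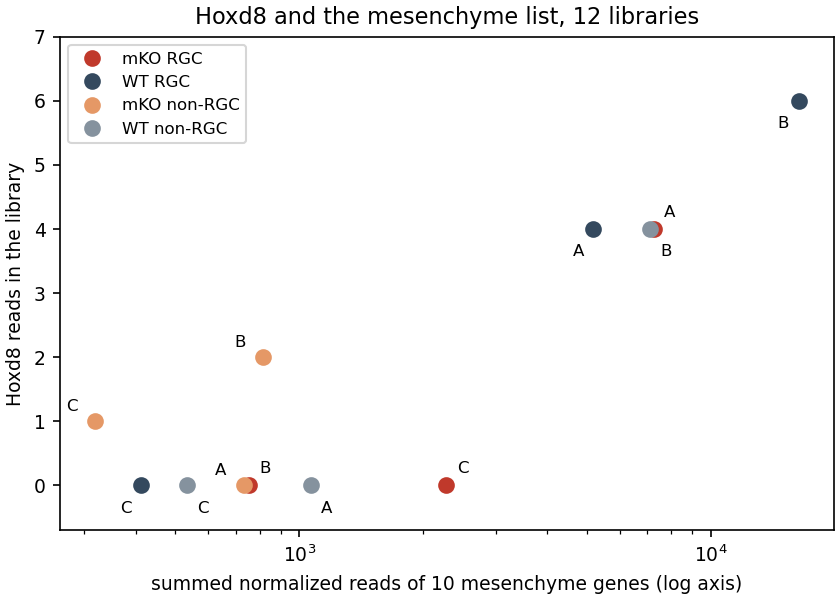
Hoxd8 reads (vertical axis) against the summed normalized reads of 10 mesenchyme genes (horizontal, log axis) in the 12 libraries, coloured by group and lettered by library. The 4 libraries at the right have 4 to 6 Hoxd8 reads, and the 8 at the left have 0 to 2.

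The posterior member Hoxd13 (ENSMUSG00000001819, chr2:74668310-74671599), which patterns digits and the hindmost body, had the lowest p of the tested members. In non-RGCs it had 1, 1 and 4 reads in mKO and 0, 0 and 0 in WT, or 0.771, 0.959 and 5.65 normalized reads against none. In RGCs it had 2, 0 and 1 reads in mKO and 0, 0 and 0 in WT. Over both fractions, Hoxd13 was read in 5 of the 6 mKO libraries, 9 reads in all, and in no WT library. The 2 fractions may share animals, so these are not counted as 6 replicates. With WT at the 3 reads a count of 0 allows over the group, Hoxd13 was at least 2.03-fold higher in mKO non-RGCs, a bound that takes the 6 mKO reads as exact. The fitted log2 fold change was 1.51 ± 0.64 (SE), with an unadjusted p of 0.0383, and it did not pass the adjustment (limma, adjusted p = 0.16). Hoxd13 reached the mean needed for the test through mKO alone, so its direction was fixed and that p gives no support. mKO library C, the shallowest library, held 4 of the 6 reads. Without it the 2 reads left in mKO were under the 3 that WT allows, and Hoxd13 was below the mean needed for the test. Without WT library A, B or C the unadjusted p was 0.0736, 0.0701 and 0.0758 (limma, adjusted p = 0.255, 0.281 and 0.234).

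Presence in every library of 1 genotype and absence from the other was then compared with other genes of similarly low counts, those with at least 3 reads in the 6 libraries and at most 6 in any. In non-RGCs 2 of 7 such Hox members (Hoxd13 and Hoxd1) had reads in every mKO library and none in WT, against 4.8% of 4856 such genes. Both reached the 3 reads through mKO alone, so they had to differ in this direction, and nothing is read from the count of 2. The reverse held for 0 of 7 members and 1.11% of the genes. In RGCs 0 of 5 such members had reads in every mKO library and none in WT, against 6.86% of 4997 genes, and the reverse held for 0 of 5 members and 0.46%. Low-count genes as a whole leaned toward mKO, with a higher sum in mKO for 72.9% of the RGC and 67.3% of the non-RGC set. Of the Hox members among them, 1 of 5 had more in mKO in RGCs (Hoxd13) and 4 of 7 in non-RGCs (Hoxd13, Hoxd1, Hoxc13 and Hoxa13). Each of these had at least 3 reads in mKO, enough for the cutoff without WT, so nothing is read from these counts. Counting all members with a read, 5 had more in mKO and 13 more in WT in RGCs, and 11 and 8 in non-RGCs. Many of these rest on a single read, and the shares above are for another set of genes. No lean toward either genotype is therefore read from them.

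Of the other posterior members, Hoxc13, a hair and nail gene, had 0, 2 and 1 reads in mKO non-RGCs and none in WT, while in RGCs its single read was in WT library B. Hoxc9, a thoracic gene, had 1 read each in mKO RGC library A, WT RGC library C and mKO non-RGC library B. Hoxa9, known from blood progenitors, had 1, 1 and 0 reads in WT RGCs, 0, 0 and 1 in mKO non-RGCs and none in the other groups. The remaining 15 members with reads had 1 to 4 reads over the 12 libraries, and 1 or 2 in any library.

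Summed per cluster, the normalized reads of mKO and WT libraries overlapped in all 4 clusters and both fractions except Hoxa in RGCs. There the highest mKO library and the lowest WT library held 2 reads each, and only their size factors set them apart. The Hoxa cluster had 1, 0 and 2 reads in mKO RGCs and 3, 3 and 2 in WT RGCs. The mean was 0.918 ± 0.942 (SD, n = 3) against 2.88 ± 0.483 normalized reads, a ratio of 0.319 with a 95% counting interval of 0.0538 to 1.31. Intervals of this kind are exact binomial (Clopper-Pearson) limits on the split of the reads and cover counting error only. The Hoxb cluster had 3, 1 and 0 reads against 2, 1 and 7 in RGCs, a ratio of 0.314 (0.0769 to 1.16). The Hoxc cluster had 2, 0 and 0 against 0, 1 and 1, a ratio of 0.775 (0.0608 to 11.6). The Hoxd cluster had 7, 0 and 2 against 5, 6 and 1, a ratio of 0.627 (0.234 to 1.63). All 4 ratios in RGCs were below 1 and all 4 intervals included 1. Without its most read member the ratio was 0 for Hoxa (Hoxa7), 0.327 for Hoxb (Hoxb4), 0.804 for Hoxc (Hoxc9) and 2.06 for Hoxd (Hoxd8). Single libraries moved them too. Hoxa was 0.152 without mKO library C and 0.479 without mKO library B. Hoxb was 0.123 without mKO library A, 0.471 without mKO library C and 0.758 without WT library C. Hoxc was 0 without mKO library A, 1.16 without mKO library B or C, 1.07 without WT library C and 0.516 without WT library A. Hoxd was 0.221 without mKO library A and 0.94 without mKO library B.

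In non-RGCs the Hoxa cluster had 2, 3 and 1 reads in mKO and 4, 1 and 0 in WT, a ratio of 1.27 (0.31 to 5.06). The Hoxb cluster had 2, 1 and 3 against 1, 3 and 3, a ratio of 0.972 (0.242 to 3.03). The Hoxc cluster had 0, 4 and 1 against 0, 1 and 1, a ratio of 2.61 (0.416 to 26.7). The Hoxd cluster, which holds Hoxd13 and Hoxd1, had 2, 4 and 6 against 0, 5 and 0, a ratio of 2.86 (0.801 to 8.85). Here too every interval included 1. Without its most read member the ratio was 0.906 for Hoxa (Hoxa13), 4.37 for Hoxb (Hoxb8), 0.954 for Hoxc (Hoxc13) and 10.9 for Hoxd (Hoxd8), so Hoxa, Hoxb and Hoxc crossed 1. Hoxa was 4.02 without WT library A, 0.968 without mKO library B and 0.849 without WT library C. Hoxb was 0.541 without mKO library C and 1.25 without mKO library B. Hoxc was 1.054 without mKO library B, 3.92 without mKO library A and 1.74 without WT library A. Hoxd was 1.67 without mKO library C and 1.91 without WT library A or C, and had no WT read without WT library B.

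**Figure D4:**
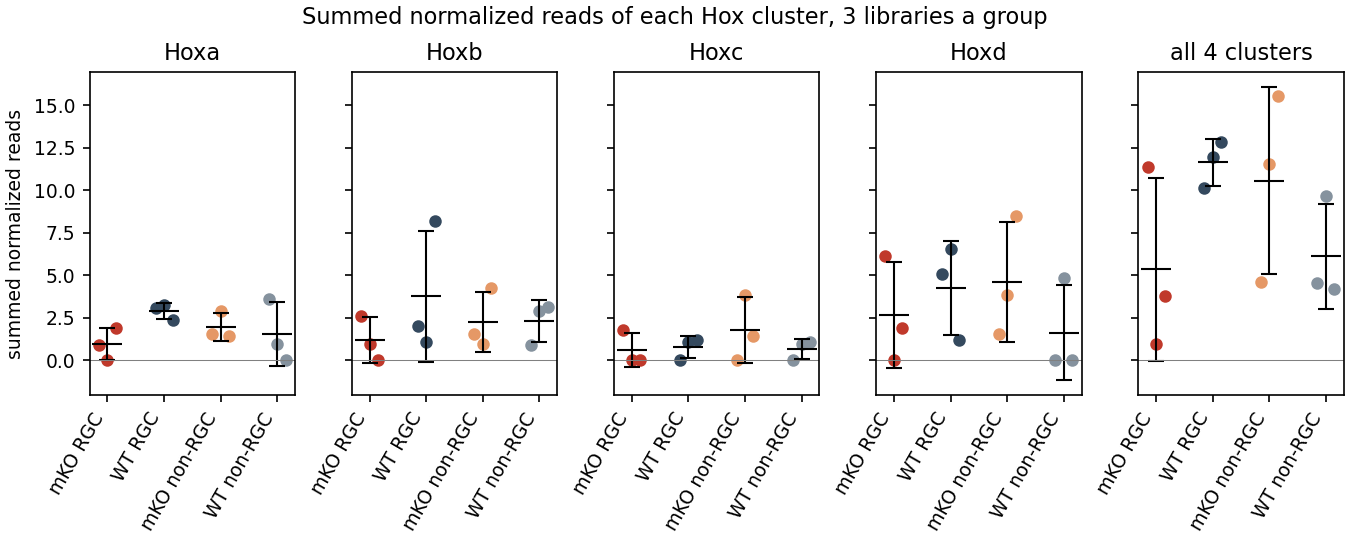
Summed normalized reads of each Hox cluster and of all 4 (panels) in the 4 groups. Points are the 3 libraries of a group (A to C from left to right), the bar is their mean and the whiskers 1 SD. The groups overlap in every panel except Hoxa in RGCs, where the mKO points (0 to 1.88) lie below the WT points (2.33 to 3.26). The points at 1.88 and 2.33 are 2 reads each.

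Over all 38 members mKO RGC libraries had 13, 1 and 4 reads and WT RGC libraries 10, 11 and 11. That is 5.34 ± 5.39 against 11.6 ± 1.38 normalized reads (SD, n = 3), a ratio of 0.459 with a counting interval of 0.25 to 0.867 that leaves out the spread between libraries. The groups overlapped, since mKO library A held more than WT library A, and without mKO library A the ratio was 0.201. In non-RGCs the totals were 6, 12 and 11 reads in mKO and 5, 10 and 4 in WT, or 10.6 ± 5.52 against 6.12 ± 3.09 normalized reads, a ratio of 1.72 (0.841 to 2.93). The 95% upper Poisson limit for the whole set was 0.752 CPM in mKO RGCs and 1.38 CPM in mKO non-RGCs, for counting error only.

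Markers of other tissues differed between the genotypes beside these sums, and their part in the Hox reads was not tested. Of 15 kidney markers, 14 could be tested in each fraction, and 8 were lower in mKO in RGCs and 6 in non-RGCs (limma, adjusted p under 0.05). Their summed level was 231 to 326 normalized reads in mKO RGCs, 360 to 573 in WT RGCs, 247 to 496 in mKO non-RGCs and 495 to 584 in WT non-RGCs. Much of the mKO sums was Lrp2, which was called in neither fraction. Lrp2 had 139 to 217 normalized reads in mKO RGCs and 114 to 185 in WT RGCs. In non-RGCs it had 186 to 425 in mKO and 264 to 298 in WT. Umod, the kidney tubule gene for uromodulin, had 0, 2 and 0 reads in mKO RGCs and 28, 35 and 34 in WT RGCs, and 1, 0 and 0 against 32, 32 and 30 in non-RGCs. Of 7 erythroid markers, 5 were higher in mKO in each fraction, with a summed level of 284 to 349 in mKO and 129 to 148 in WT RGCs, and of 571 to 873 and 139 to 223 in non-RGCs. Of 12 RGC markers, 8 were higher in mKO non-RGCs, with sums of 6008 to 8209 against 5635 to 5968. In mKO RGCs 10 were lower, at 23384 to 24514 against 32395 to 35033. Hoxd13 and Hoxd1 had reads in both mKO fractions and in neither WT fraction. Of 8 leukocyte and 8 endothelial and pericyte markers, 1 of each list was lower in mKO RGCs and none was called in non-RGCs. Of 10 hindbrain and spinal cord markers none was called in either fraction. Of 8 progenitor and photoreceptor markers, 6 were lower in mKO RGCs and 2 in mKO non-RGCs.

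Noncoding RNAs transcribed from within the clusters were at similarly low counts. Of 19 such RNAs sought, 10 were listed under the names used here, none reached the mean needed for the test, and none exceeded 2 reads in a library. Hotair, which lies in the Hoxc cluster, Hoxa11os, Hoxb3os, Mir10a, Mir196a-1 and Mir196b were at 0 in all 12 libraries. Mir10b, a microRNA gene inside the Hoxd cluster (hairpin chr2:74726070-74726137, within the span of Hoxd3), had 2, 2 and 1 reads in mKO RGCs and 0, 0 and 0 in WT RGCs. In non-RGCs it had 0, 2 and 0 in mKO and none in WT. Its mature product is shown because it is the cluster RNA read in every mKO RGC library and in no WT library, as were 6.86% of low-count genes (RefSeq, GRCm38.p6, seed bases 2 to 8 in capitals).
mmu-miR-10b-5p (chr2:74726074-74726096): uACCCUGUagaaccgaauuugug
Poly-A selected mRNA libraries do not measure mature microRNAs, so these reads count the longer transcript across the hairpin. That transcript cannot be told from the overlapping Hoxd3 transcript or from a transcript of the other strand where strand was not kept, and the counting is not stated to use strand.

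The homeobox genes Evx1 and Evx2, which sit at the 5′ ends of the Hoxa and Hoxd clusters, were at 0 in all libraries except for 1 read of Evx2 in WT non-RGC library B. The ParaHox genes (Cdx1, Cdx2, Cdx4, Gsx1, Gsx2 and Pdx1) and Mnx1, which are also Polycomb targets, had 0 to 3 reads in any library. Only Gsx1 could be tested, in non-RGCs, with a log2 fold change of -0.17 ± 0.60 (SE; limma, adjusted p = 0.889).

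All 9 TALE cofactors were read in every library. In RGCs 1 of 9 rose and 2 fell in mKO. Pknox1 rose by a log2 fold change of 0.27 ± 0.077 (SE; limma, adjusted p = 0.0376), with 856, 836 and 898 normalized reads in mKO and 733, 660 and 764 in WT, and missed the threshold under 6 of 13 alternatives. Meis3 fell by 0.36 ± 0.088 (limma, adjusted p = 0.0196) and Pbx2 fell by 0.29 ± 0.072 (limma, adjusted p = 0.0219), but with the trend on GC content removed their log2 fold changes were 0.15 and 0.066, so neither direction held. In non-RGCs none of the 9 was called. Their median log2 fold change was -0.13 in RGCs and -0.11 in non-RGCs.

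Of the 18 flanking genes, 1 rose and 3 fell among 16 tested in mKO RGCs, and none of 17 was called in mKO non-RGCs. Lnp, an endoplasmic reticulum gene beside the Hoxd cluster, rose by 0.58 ± 0.063 (limma, adjusted p = 0.000903), from 590, 617 and 620 normalized reads in WT to 912, 890 and 928 in mKO, and its value was 0.069 (limma, adjusted p = 0.466) with the GC trend removed. Atp5g3, a mitochondrial ATP synthase subunit on the same side, fell by 0.59 ± 0.066 (limma, adjusted p = 0.000986). Hnrnpa1, an RNA-binding protein near Hoxc, fell by 0.52 ± 0.071 (limma, adjusted p = 0.00197). Calcoco1 fell by 0.40 ± 0.069 (limma, adjusted p = 0.00507), and its value was 0.045 with the GC trend removed. Their median log2 fold change was 0.058 in RGCs and 0.13 in non-RGCs.

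The known regulators of the clusters were read in both genotypes. Of 11 PRC2 genes, 1 rose and 3 fell in mKO RGCs, with Mtf2, which recruits PRC2 to CG-rich DNA, at 0.68 ± 0.078 (limma, adjusted p = 0.00103) and Phf1 at -0.62 ± 0.079 (limma, adjusted p = 0.00152). In non-RGCs Mtf2 alone was called, at 0.65 ± 0.14 (limma, adjusted p = 0.025). Of 12 PRC1 genes, which bind the methylated histone, 1 rose and 6 fell in mKO RGCs and 1 fell in non-RGCs. Of 11 genes of the opposing Trithorax group and the H3K27 demethylases, 2 rose and 4 fell in RGCs and 3 fell in non-RGCs, with the demethylase Kdm6b at -0.64 ± 0.058 (limma, adjusted p = 0.000639) and -0.90 ± 0.13 (limma, adjusted p = 0.00626). Of 12 genes of retinoic acid, the signal that switches on anterior Hox genes, 2 fell in RGCs and 3 in non-RGCs, Rara at -0.69 ± 0.060 (limma, adjusted p = 0.000614) and -0.64 ± 0.12 (limma, adjusted p = 0.014). With the GC trend removed Mtf2, Phf1, Kdm6b and Rara kept their direction and none of them passed the adjusted p in either fraction.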

How the data were processed

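Single-end poly-A libraries were aligned by the authors to mm10 with STAR (2.3.1z4 in the submitters' processing notes) and counted per gene with featureCounts, with duplicates removed per the labels and DESeq normalization per fraction. The deposited signal is the authors' mean of 3 normalized counts per genotype, to 15 digits. Their deposited fold changes and p-values were not used. The whole reads behind each mean were solved, with a single solution for 100% of genes with reads, and checked on simulated data (7671 of 7671 mKO RGC genes exact). Each table was tested alone with limma 3.58.1 (R 4.3.3) on log2(normalized reads + 1) for genes averaging 1 or more. Alternatives were no filter, a mean of at least 10 in either genotype, a pseudocount of 0.5, reads on genes as library size, voom, removal of a GC trend, unadjusted p with a 1.5-fold change, and leaving out libraries. Positions are from GENCODE M21. Members are named with every value when called, at a mean of 10, read in every library of 1 genotype and none of the other, or among the 2 highest of a cluster, and other anterior members named were chosen after their values were seen. From other lists, at most the 4 largest called changes are named. Members and lists were chosen with earlier results of these data known. Some results of single genes are not reported here.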

Additional observations from a re-analysis of the deposited data

How the results depend on the processing

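No Hox member passed an adjusted p of 0.05 in either fraction under any alternative that could test 1, and a mean of at least 10 normalized reads left none to test. An unadjusted p under 0.05 with a 1.5-fold change called 1 member in non-RGCs, Hoxd13, which reached the mean needed for the test through mKO alone. With no filter it called 2 there, Hoxd13 (limma, adjusted p = 0.11) and Hoxd1 (limma, adjusted p = 0.14), which reach 3 reads through mKO alone, and without WT library C it called Hoxd8 in RGCs. The median of the tested members in non-RGCs ran from -0.54 to 0.65 when each library was left out, and Hoxd8 in non-RGCs from -0.20 to 0.65, below 0 without mKO library B (-0.13) and without WT library A or C (-0.20). Leaving out each library gave Hoxa cluster ratios in non-RGCs of 0.849 to 4.02, the highest without WT library A. Without its most read member the Hoxd ratio was 2.06 in RGCs and 10.9 in non-RGCs (without Hoxd8), and the Hoxb ratio in non-RGCs was 4.37 (without Hoxb8). Counting members with at most 3 reads in every library in place of 0 gave 36 in place of 14. Ezh2 in RGCs ran from 0.00069 to 0.25 when each library was left out, passing without WT library C (limma, adjusted p = 0.00554), and was -0.065 with the GC trend removed (adjusted p = 0.775) and -0.20 (adjusted p = 0.0911) without mKO library A and WT libraries A and B, the libraries highest in mesenchyme transcripts, a choice made after seeing the data, as were the sums over all 4 clusters. The causes were not tested. The sum over all 4 clusters in RGCs was 0.183 without the mesenchyme-rich libraries. The other 199 values kept their side and direction or moved less than the spread. Over all genes, reads on genes as library size turned the split of higher to lower calls from 2733 and 3274 to 3998 and 2152 in RGCs and from 688 and 928 to 1341 and 419 in non-RGCs, moving the median of all genes from 0.070 to 0.19 and from 0.035 to 0.20. The GC trend left 1112 and 1114 calls in RGCs and 129 and 61 in non-RGCs. Leaving out mKO library A, B or C in RGCs left 1437 and 2102, 1422 and 2286, and 1298 and 2149, and leaving out the mesenchyme-rich libraries 1706 and 2496. In non-RGCs leaving out mKO library A, B or C left 227 and 732, 47 and 76, and 424 and 991, and WT library A or B 352 and 441, and 192 and 233. No paired analysis was possible because the deposited values carry no replicate numbers, so the fit with the number as a block was not run. With 98 reads in all, a Hox gene present at under a few reads per library could be missed, or its change left uncalled, at this depth.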
